A study of Mus musculus with 12 samples.

Results

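The 10 genes followed across the 12 libraries were Mup1, Mup3, Mup7, Mup9, Mup10, Mup11, Mup12, Mup16, Mup18 and Mup20, which encode major urinary proteins. They were chosen by name from the 54532 gene rows of the count table, which holds 21 rows named Mup and a number. RNA was sequenced from liver and subcutaneous fat of male mice that received 1 tail vein injection at 10 weeks of age and a low-fat diet for the next 16 weeks. Null mice received adeno-associated virus serotype 8 with the thyroxine-binding globulin promoter (TBGp) and no insert, and hHKDC1 OE mice received the same vector with full-length human HKDC1, a hexokinase. Each tissue had 3 null and 3 hHKDC1 OE libraries. The promoter is active in hepatocytes, so the fat of hHKDC1 OE mice was not itself the target of the transgene. The strain is not given in the sources used here, nor is it stated whether liver and fat came from the same mice. In each tissue, GEO's description calls 2 of the 3 hHKDC1 OE libraries (replicates 2 and 3) knockouts, while title and treatment say overexpression. They were kept as hHKDC1 OE, and calls without them are given below. The human transgene has no row in the count table, and the mouse Hkdc1 row held 0 to 8 counts in every library, so the label could not be checked on the targeted gene.

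Major urinary proteins are small lipocalins, barrel-shaped carriers of hydrophobic ligands. In mice, hepatocytes secrete them into the blood and the kidney passes them into the urine, where they bind and slowly release volatile pheromones. Their liver expression is known to be higher in males and to depend on pulsatile growth hormone acting through STAT5, on androgen, thyroid hormone and glucocorticoids, and circulating MUP1 is known to affect glucose and lipid handling. The genes form a cluster of recent copies on mouse chromosome 4, and the copies at the centre of the cluster are nearly identical.

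That near identity decides how well a read can be given to 1 copy, so the coding starts are shown first. In the GENCODE mouse release 21 annotation (GRCm38), all 10 genes had the identifier, position and strand of the count table and lie on the minus strand of chromosome 4. The lines below give the first 30 coding bases of 8 of the genes, 5′ to 3′, all in the first coding exon and ordered along the chromosome. Capitals mark bases that differ from the commonest base at that place over the 10 genes, counted from the A of the ATG.
Mup7, chr4:60070271-60070300: atgaagatgctgctgctgctgtgtttgggG
Mup9, chr4:60421857-60421886: atgaagatgctgctgctgctgtgtttggga
Mup1, chr4:60501820-60501849: atgaagatgctgctgctgctgtgtGtggga
Mup10, chr4:60582059-60582088: atgaagatgAtgctgctgctgtgtttggga
Mup11, chr4:60662271-60662300: atgaagatgctgctgctgctgCTGtGTTTG
Mup12, chr4:60741186-60741215: atgaagatgctgctgctgctgtgtttggga
Mup16, chr4:61519391-61519420: atgaagatgctgTtgctgctgtgtttggga
Mup18, chr4:61673996-61674025: atgaagatgctgctgctgctgCTGtGTTTG
Mup9 and Mup12 were identical over these bases, and Mup1, Mup7, Mup10 and Mup16 each differed from them at 1 position. Mup11 and Mup18 were identical to each other and carry an additional ctg, which shifts the bases after it.

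Over whole annotated transcripts, Mup1 and Mup12 were 99.6% identical with 4 differing positions, and Mup16 and Mup18 were 99.1% identical with 8. Mup20 and Mup3 were less close to any other copy. The nearest Mup transcript was Mup4 for Mup20, at 90.6%, and Mup21 for Mup3, at 95.0%. For Mup9 it was Mup19, at 95.2%, but the annotated Mup9 transcript has 7 coding exons where that of Mup19 has 6. That percentage compares unlike transcripts, and the share of unique windows of Mup9, given next, was near those of the closer copies. Of the 150-base windows along each transcript, the length of the reads, the share found in no other gene's transcripts was 100% for Mup3 and 68.9% for Mup20. It was 27.6% for Mup16, 24.1% for Mup12, 22.5% for Mup7, 21.8% for Mup11, 21.7% for Mup9, 17.5% for Mup1, 15.6% for Mup10 and 13.7% for Mup18. In windows of 250 bases, nearer to the length of a sequenced fragment, it was 53.1% for Mup7, 45.0% for Mup16 and 37.1% for Mup9, and 16.9% to 29.99% for Mup1, Mup10, Mup11, Mup12 and Mup18. How reads that match several copies were counted is not given in the sources used here, so reads may have been lost or moved between copies, and the sum of the 10 genes is given beside them.

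Of the 10 genes, 6 had a promoter entry in RefSeq (GRCm38.p6), which spans 250 bases before to 50 after the annotated start: Mup3, Mup7, Mup9, Mup10, Mup11 and Mup18. The lines that follow give the 30 bases around TATATAA, in capitals, which 5 of these 6 windows hold, read 5′ to 3′ on the gene's own strand (minus). They are printed because the shared stretch lies near the annotated starts. The motif begins 31 bases before the annotated start in Mup9, 30 in Mup10, 2 in Mup11, 28 in Mup18 and 11 in Mup3. The Mup7 window ends before the aligned place, so it could not show the motif.
Mup9, chr4:60421966-60421995: gaacccagagagTATATAAggacaagcaaa
Mup10, chr4:60582168-60582197: gaactcagagatTATATAAggacaagcaaa
Mup11, chr4:60662380-60662409: gaacccagagagTATATAAggacaagcaaa
Mup18, chr4:61674105-61674134: gaacccagagagTATATAAggacaagcaaa
Mup3, chr4:62087311-62087340: gaaaccagagagTATATAAggacaagcaaa
Mup9, Mup11 and Mup18 had the same 30 bases there. The motif was chosen after these sequences were read, and 3.24% of all 32851 promoter windows hold TATATAA on either strand. The STAT5 motif TTCNNNGAA, searched on both strands, was in 0 of the 6 windows and in 8.30% of all windows, and the HNF1 motif GTTAAT was in 0 of the 6 and in 7.10% of all. CCAAT was found in the windows of Mup7, Mup11 and Mup18, and in 37.4% of all. The windows of Mup9 and Mup10 begin inside or just past the aligned place, so they could not show it. TATAAA and the glucocorticoid receptor motif were in 0 of the 6, and in 13.6% and 0.475% of all. These are letter matches in a short window.

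Libraries held 15496019 to 19954971 counts on genes. The 10 hepatocyte markers summed to 67170 to 107516 CPM in liver, where CPM are counts scaled to a common library size by TMM within a tissue. In fat, 6 adipocyte markers summed to 10857 to 13254 CPM in null and 6028 to 12198 CPM in hHKDC1 OE libraries. Fat libraries also carried hepatocyte markers, at 2466 to 6957 CPM in null and 697 to 1987 CPM in hHKDC1 OE fat. B cell markers were at 1.49 to 2.57 CPM in null fat and 39.0 to 708 CPM in hHKDC1 OE fat, and in liver they stayed at or below 3.32 CPM. In whole tissue, fewer cells of a type and less RNA per cell cannot be told apart.

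In null liver the 10 genes fell into 3 tiers by level per length (the authors' FPKM, mean ± SD, n = 3). At the top was Mup3, at 14225 ± 3385 FPKM, followed by Mup7 at 7027 ± 2880, Mup12 at 5779 ± 4433 and Mup20 at 5604 ± 925. Mup20 encodes darcin, a male scent-mark pheromone. The ranges of Mup7, Mup12 and Mup20 overlapped, so their order was within the spread of the libraries. A middle tier held Mup11 at 293 ± 82.6 FPKM, Mup16 at 207 ± 47.1 and Mup18 at 196 ± 62.0, again with overlapping neighbours. Mup1 was at 26.1 ± 16.5 FPKM, Mup9 at 3.63 ± 2.14 and Mup10 at 1.85 ± 0.206, and the last 2 overlapped. By counts, Mup3 ranked between 5 and 9 among all genes of a liver library.

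In liver, the question was whether Mup expression differed between hHKDC1 OE and null mice. None of the 10 genes passed edgeR's quasi-likelihood test at a Benjamini-Hochberg adjusted p under 0.05, nor did any of the 13351 genes tested (0% called), while 927 genes (6.94%) had an unadjusted p under 0.05. The groups overlapped for all 4 genes of the top tier, and also for Mup11 of the middle tier and for Mup1. Mup16 had the smallest p-value of all genes tested. With no adjustment, 6 of the 10 had p under 0.05 and were higher (Mup1, Mup9, Mup10, Mup11, Mup16 and Mup18), against 3.89% of all genes. All but Mup3 had a log2 fold change above 0, that is 9 of 10 against 51.1% of all genes. The median over the 10 was 1.28 against 0.01 over all genes. The copies share sequence and were chosen with earlier results of these data known, so these counts are a description.

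Mup16 lies at chr4:61515592-61519531 (GRCm38). Its counts were 2191, 3070 and 2204 in null liver and 10756, 11112 and 18080 in hHKDC1 OE liver. Every hHKDC1 OE library was above every null library. In CPM the means were 157 ± 37.0 and 739 ± 198 (SD, n = 3), a log2 fold change of 2.23 ± 0.24 (SE) with an edgeR adjusted p of 0.0573.

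Mup9, at chr4:60418046-60421952, had the largest fold change of the 10 genes. It had 105, 47 and 37 counts in null and 1402, 315 and 1701 in hHKDC1 OE liver. The groups did not overlap, and hHKDC1 OE replicate 2 was the lowest of its group. Its log2 fold change was 4.03 ± 0.63 with an edgeR adjusted p of 0.163.

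Mup18, at chr4:61670177-61674136, gave 2384, 1320 and 2700 counts in null and 6552, 3704 and 5993 in hHKDC1 OE liver, which do not overlap. The log2 fold change was 1.20 ± 0.30 (edgeR adjusted p 0.458). Mup10, at chr4:60578260-60582199, was the gene with the fewest counts, 28, 33 and 29 in null and 96, 45 and 117 in hHKDC1 OE liver, with a log2 fold change of 1.35 ± 0.40 (edgeR adjusted p 0.520). Mup9, Mup10, Mup16 and Mup18 were the 4 genes whose groups did not overlap after scaling, all of them higher, against 6.31% of all genes.

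Mup11 and Mup1 were higher on average, but after scaling hHKDC1 OE replicate 2 lay among the null libraries. It was at 363 CPM against 231 to 413 for Mup11, and at 25.7 against 14.2 to 50.2 for Mup1. Mup11 had 6029, 3552 and 6659 counts in null and 28098, 6832 and 22443 in hHKDC1 OE liver, a log2 fold change of 1.69 ± 0.47 (edgeR adjusted p 0.520). Mup1 had 812, 218 and 415 counts in null and 3636, 483 and 1271 in hHKDC1 OE liver, a log2 fold change of 1.81 ± 0.70 (edgeR adjusted p 0.642). Without hHKDC1 OE replicate 1 the Mup1 value was 0.64, and without null replicate 1 it was 2.40.

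The 4 abundant genes showed no such separation. Mup12 counts ran from 19132 to 112391 in null and from 55574 to 182754 in hHKDC1 OE liver, with null replicate 3 the lowest, and the log2 fold change was 0.84 ± 0.59, or 1.57 without null replicate 1. Mup7 ran from 56012 to 127937 and from 41817 to 181040, with a log2 fold change of 0.31 ± 0.48. Mup20, the darcin gene, ran from 50849 to 71080 and from 46427 to 82765, a log2 fold change of 0.02 ± 0.26. Mup3 was between 138229 and 215891 in null and between 164536 and 210163 in hHKDC1 OE liver, a log2 fold change of -0.07 ± 0.24. For these 4 genes the groups overlapped and the edgeR adjusted p was 0.835 to 0.991.

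**Figure D1:**
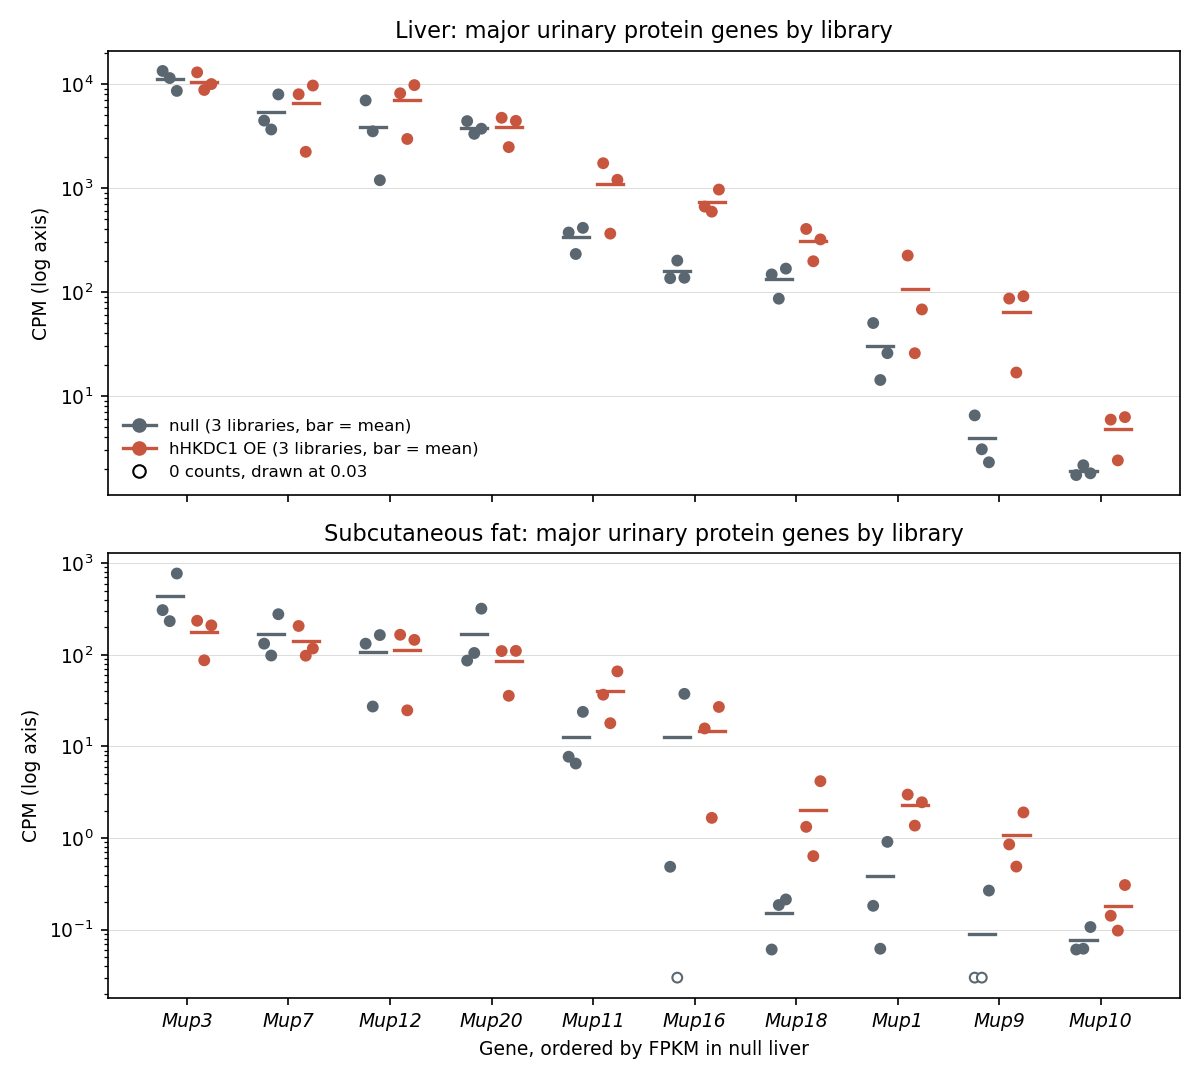
CPM of each gene (log axis) in the 12 libraries, liver above and subcutaneous fat below; points are libraries, bars are means of 3, open points are libraries with 0 counts. In liver the groups are apart for Mup9, Mup10, Mup16 and Mup18 and overlap for the 4 most abundant genes.

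The calls depended on the fit. With no filter on low counts edgeR called 7 of the 10 in liver (all but Mup3, Mup7 and Mup20), among 180 genes higher and 147 lower. With library size alone it called Mup16 (edgeR adjusted p 0.0419), among 2 genes higher and 0 lower. In the fit of 12 libraries 0 of the 10 were called in liver, and the adjusted p of Mup16 was 0.882 with edgeR. With limma on log2 FPKM it was 0.125 at a pseudocount of 1 and 0.194 at 0.1, again with 0 called, and leaving out any library but hHKDC1 OE replicate 2 gave 0.118 to 0.318 with edgeR. With the replicate number as a block, for which same-numbered liver libraries deviated together, Mup9, Mup16 and Mup18 passed (edgeR adjusted p 0.0233, 0.0233 and 0.0461), among 13 genes higher and 4 lower in all. DESeq2 called the same 3 genes (adjusted p 5.00e-04, 3.16e-19 and 0.00365) among 94 genes (0.736% of those tested, 0.352% higher). Without hHKDC1 OE replicate 2, edgeR called 5 (Mup9, Mup10, Mup11, Mup16 and Mup18) among 77 genes higher and 69 lower. Without replicates 2 and 3, the libraries described as knockouts, it called 4 (Mup1, Mup9, Mup11 and Mup16) among 50 higher and 26 lower, with log2 fold changes of 2.89 for Mup1 and 2.35 for Mup11. That fit leaves 1 hHKDC1 OE library, which is assumed to vary like the null group. Hepatocyte markers were at 67170 to 89219 CPM in hHKDC1 OE and 101160 to 107516 CPM in null liver, Kupffer cell markers at 148 to 320 and 81.1 to 150 CPM. Their part in the Mup values was not tested.

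Because reads of one copy can fall on another, the 10 genes were also summed. The sum was 29822, 22394 and 22146 CPM in null liver and 36844, 17597 and 36435 CPM in hHKDC1 OE liver. Replicate 2 of hHKDC1 OE was the lowest of all 6 libraries and the other two hHKDC1 OE libraries were the highest. The means were 24787 ± 4362 and 30292 ± 10996 CPM (SD, n = 3), a ratio of 1.22, or 0.29 on the log2 scale, within the spread of replicates of 0.46. Without hHKDC1 OE replicate 2 the log2 ratio was 0.56. The sum made up 1.91% to 3.81% of all liver counts.

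Read as shares of the 10-gene sum, 5 genes were apart between the groups in liver and higher in hHKDC1 OE. The share of Mup16 was 0.454% to 0.893% in null and 1.80% to 3.36% in hHKDC1 OE liver. Mup11 went from a range of 1.03% to 1.86% to a range of 2.07% to 4.69%. For Mup18 the ranges were 0.384% to 0.756% and 0.877% to 1.12%. Mup9 and Mup10 were the other two, with shares of at most 0.249% in all liver libraries. The share of Mup20 was lower in hHKDC1 OE liver, 12.1% to 14.03% against 14.7% to 16.8%, and the remaining 4 shares overlapped. Shares of a fixed total are not independent of each other, and they were not tested.

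Among the 11 Mup rows outside the 10 genes, 8 were tested in liver, 7 of them had a log2 fold change above 0, 5 were higher at an unadjusted p under 0.05, and 0 passed after adjustment with edgeR, against 51.1% of all genes above 0 and 3.89% higher at that unadjusted p. Mup15 stood at 85161 counts in hHKDC1 OE replicate 1 and at 1238 to 8046 in the other liver libraries. Mup4, which was below the filter, had 8557 counts in hHKDC1 OE replicate 3 and at most 38 elsewhere in liver, and Mup8 had 5132 counts in the same library and at most 185 elsewhere. Mup19 ran from 75 to 11428 counts in null and from 423 to 7386 in hHKDC1 OE liver. Mup17 held 19527 to 28042 counts in null and 89906, 21451 and 103032 in hHKDC1 OE liver. Mup13 held 575 to 1727 counts in null and 2287 to 13847 in hHKDC1 OE liver. Mup2, Mup14 and Mup21 had log2 fold changes of 1.02, 0.14 and 0.19. The 10 genes took 88.9% to 92.9% of the counts on all 21 rows in null liver and 74.5% to 89.2% in hHKDC1 OE liver, and over all 21 rows the log2 ratio of the sums was 0.46.

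**Figure D2:**
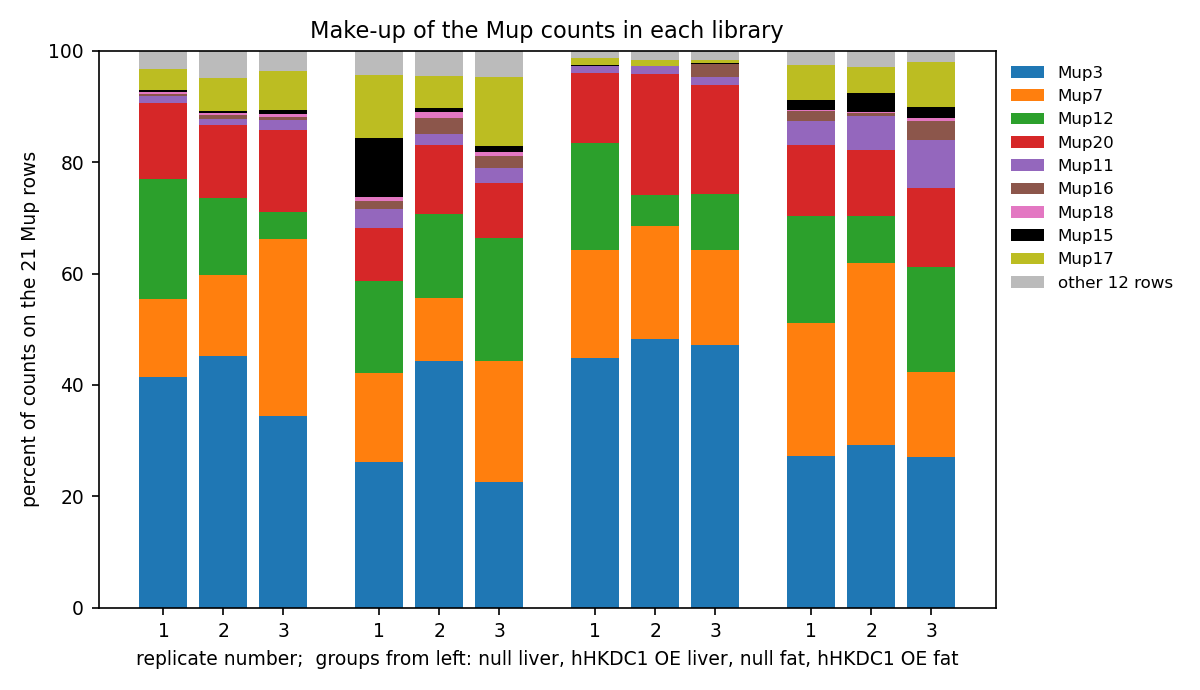
Percent of the counts on the 21 Mup rows taken by each row, 1 bar per library, with the other 12 rows in grey. Mup15 (black) is visible in hHKDC1 OE liver replicate 1, and Mup3 (blue) takes less of each hHKDC1 OE fat library than of any null fat library.

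Along the chromosome, Mup9, Mup1, Mup10 and Mup11 lie between 461 and 702 kb from the start of the first Mup row, and Mup16 and Mup18 lie at 1559 and 1713 kb. Mup20 and Mup3, whose log2 fold changes were the nearest to 0 among the 10 genes, lie at 2093 and 2127 kb, at the other end of the cluster from Mup7 at 110 kb. Neighbours share sequence, so their values are not independent.

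**Figure D3:**
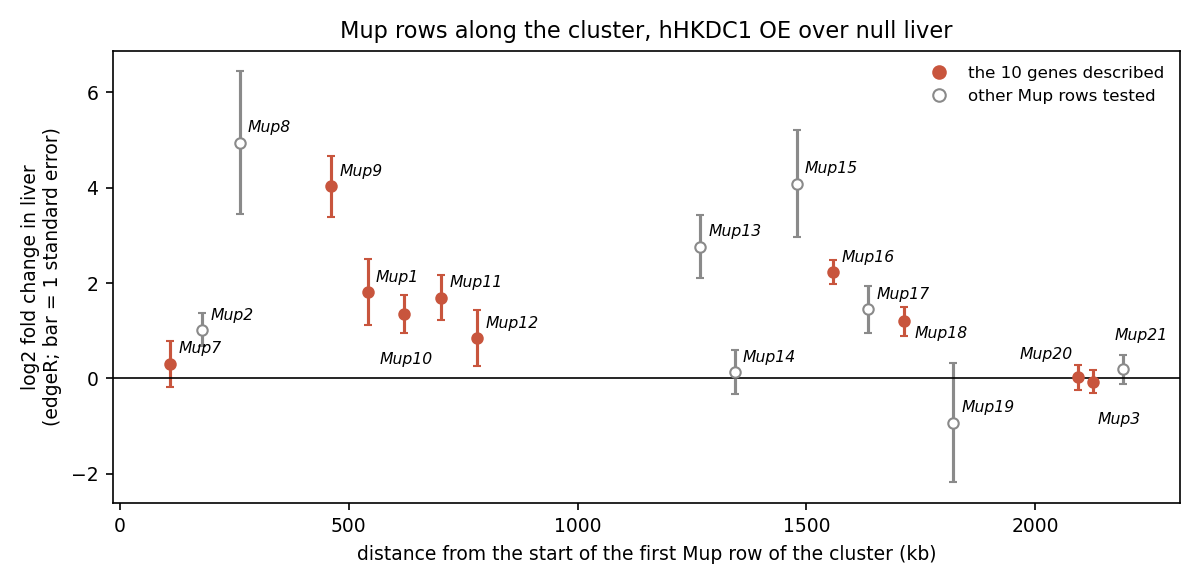
Log2 fold change in liver (edgeR, bar = 1 SE) of the 18 tested Mup rows against distance in kb from the first row; filled points are the 10 genes. Mup8, Mup9 and Mup15 are highest, Mup19 lies below 0, and Mup20 and Mup3 near the right end lie near 0.

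In subcutaneous fat, the comparison asked whether the same genes differed between the mice although the transgene was directed to hepatocytes. Mup RNA was present in fat at a small fraction of its liver level, 0.0284% to 0.160% of all counts. Of the 10 genes, 8 passed the filter on low counts, and 0 of them passed edgeR's test at an adjusted p under 0.05, as did 0 of 16380 genes (0%), while 2903 genes (17.7%) had an unadjusted p under 0.05. Mup1, Mup11 and Mup18, that is 3 of the 8, were higher at an unadjusted p under 0.05, against 11.3% of all genes, and 1, Mup3, was lower, against 6.39%. Mup1, Mup16 and Mup18 passed the filter only through the hHKDC1 OE libraries, since at most 1 null fat library of each held enough counts. Mup1 and Mup18 are high there, so their direction was largely set by the filter and the count of 3 is a description.

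In null fat Mup18 had 1, 3 and 4 counts, against 28, 13 and 68 with hHKDC1 OE. No null library reached the lowest hHKDC1 OE library, and the counts are so few that counting error is large. The log2 fold change was 3.66 ± 0.90 (edgeR adjusted p 0.137), or 2.62 without hHKDC1 OE replicate 3. Mup1 had 3, 1 and 17 counts in null and 63, 28 and 40 in hHKDC1 OE fat, a log2 fold change of 2.51 ± 0.85 (edgeR adjusted p 0.211), also with no overlap, and 4.11 without null replicate 3. Mup9 was below the filter, with 0, 0 and 5 counts in null and 18, 10 and 31 in hHKDC1 OE fat. A count of 0 allows up to 3. Mup1, Mup9 and Mup18 were the 3 genes whose fat groups did not overlap, of which Mup9 was not tested, and 12.5% of all tested genes were higher without overlap.

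Mup11 had 127, 105 and 446 counts in null and 775, 367 and 1073 in hHKDC1 OE fat. Null replicate 3 lay above hHKDC1 OE replicate 2 after scaling, at 23.9 and 17.9 CPM, and the log2 fold change was 1.66 ± 0.63 (edgeR adjusted p 0.248), or 2.46 without null replicate 3. Mup10, below the filter, had at most 5 counts in any fat library. Mup16 was erratic, with 8, 0 and 701 counts in null and 332, 34 and 439 in hHKDC1 OE fat, and its log2 fold change was 0.22 ± 1.76. Without null fat replicate 3 that value was 5.83.

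Mup3, the gene with the highest mean FPKM in null fat (306 ± 211), had 5060, 3759 and 14427 counts in null and 4968, 1783 and 3412 in hHKDC1 OE fat. Its log2 fold change was -1.30 ± 0.54 (edgeR adjusted p 0.276), and the groups overlapped by a narrow margin, 233 CPM in null replicate 2 against 235 CPM in hHKDC1 OE replicate 1. Mup20 counts were 1424 to 5967 in null and 731 to 2321 in hHKDC1 OE fat, a log2 fold change of -0.995 ± 0.61. Without null replicate 3 the values were -0.64 for Mup3 and -0.20 for Mup20. Mup7 ran from 1585 to 5188 and from 1909 to 4360, and Mup12 from 440 to 3073 and from 507 to 3495, with log2 fold changes of -0.27 and 0.05. DESeq2 called Mup1, Mup11 and Mup18 (adjusted p 0.0494, 0.0471 and 0.00374) among 1446 genes (7.46% of those tested, 6.46% higher), and edgeR called Mup18 without hHKDC1 OE replicate 2 (adjusted p 0.0155) and in the fit of 12 libraries (adjusted p 0.0264). Those fits called many genes, 1957 higher and 1294 lower of 17190 in the first and 770 higher and 106 lower of 17070 in the other, so 1 call among the members is not a result about them. Without the libraries described as knockouts edgeR called 796 genes higher and 228 lower in fat, and 0 of the Mup genes tested.

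**Figure D4:**
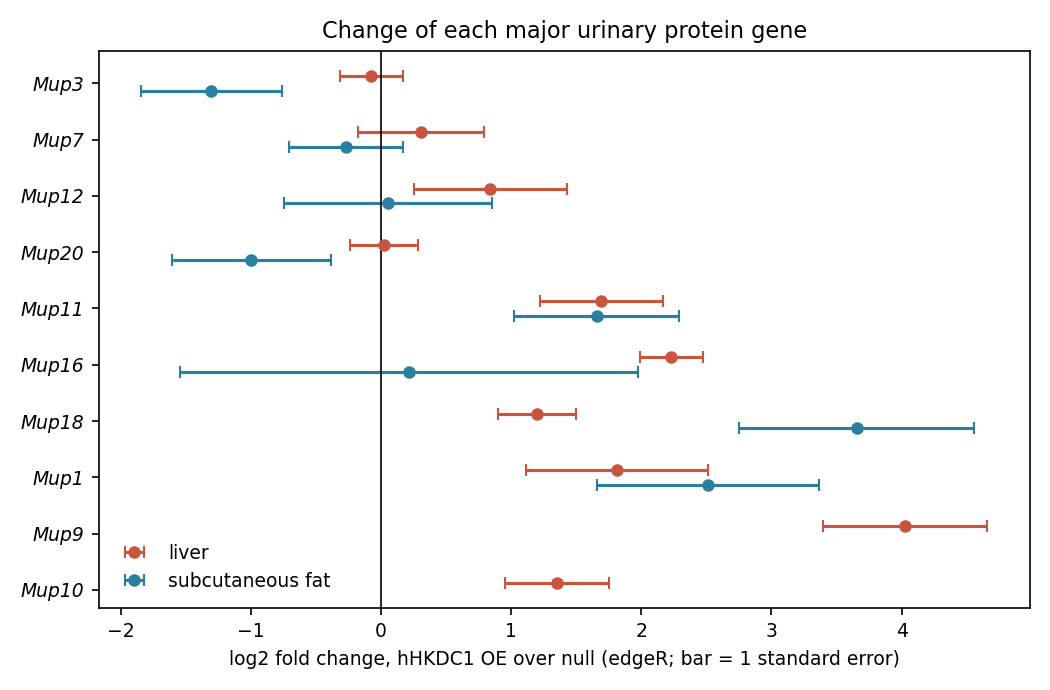
Log2 fold change of hHKDC1 OE over null for each gene in liver and in subcutaneous fat (edgeR, bar = 1 SE); Mup9 and Mup10 were below the filter in fat. Mup1, Mup11, Mup12, Mup16 and Mup18 lie above 0 in both tissues. Of these, Mup1, Mup16 and Mup18 passed the fat filter only through hHKDC1 OE libraries. With a library left out, the fat value of Mup12 ran from -0.47 to 0.52 and that of Mup16 from -0.54 to 5.83. Mup3 and Mup20 lie near 0 in liver and below 0 in fat, at -0.64 and -0.20 in fat without null replicate 3.

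The sum of the 10 genes in fat was 668, 470 and 1596 CPM in null and 775, 268 and 685 CPM in hHKDC1 OE, with null replicate 3 far above the others. The means were 911 ± 601 and 576 ± 271 CPM (SD, n = 3), a log2 ratio of -0.66, and -0.02 without null replicate 3. Null replicate 3, with the highest Mup sum, also had the highest hepatocyte marker sum, 6957 CPM, and hHKDC1 OE replicate 2 had the lowest of both. Between these extremes the order differed, since hHKDC1 OE replicates 1 and 3 had higher Mup sums than null replicates 1 and 2 but lower marker sums, 1987 and 1107 against 2478 and 2466 CPM. T cell markers were at 2.91 to 7.76 CPM in null and 20.97 to 358 CPM in hHKDC1 OE fat, and the macrophage markers of the Kupffer cell list at 5.02 to 14.2 and 27.4 to 354 CPM. Keratinocyte markers were at 18.9 to 258 CPM in null and 4.50 to 16.3 CPM in hHKDC1 OE fat. The part of these cell types in the Mup values of fat was not tested.

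Divided by the summed counts of the 10 hepatocyte markers, the Mup sum in null fat was 0.269, 0.191 and 0.229, close to the 0.277, 0.221 and 0.219 of null liver. In hHKDC1 OE fat the ratio was 0.390, 0.384 and 0.619, and in hHKDC1 OE liver 0.413, 0.221 and 0.542. All 3 hHKDC1 OE fat libraries lay above all 3 null fat libraries, while in liver hHKDC1 OE replicate 2 lay among the null libraries. The means were 0.230 ± 0.0393 and 0.464 ± 0.134 in fat (SD, n = 3), a log2 ratio of 1.01, and 1.28 with Alb alone below the line. An exact permutation test of 3 against 3 cannot go below 0.1, and none was run on a sum over chosen genes. The markers themselves were lower without overlap in hHKDC1 OE fat, 697 to 1987 CPM against 2466 to 6957, and in hHKDC1 OE liver, 67170 to 89219 CPM against 101160 to 107516, and the Mup sum in fat was lower on average too. The ratio is therefore not a measure of Mup RNA alone.

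**Figure D5:**
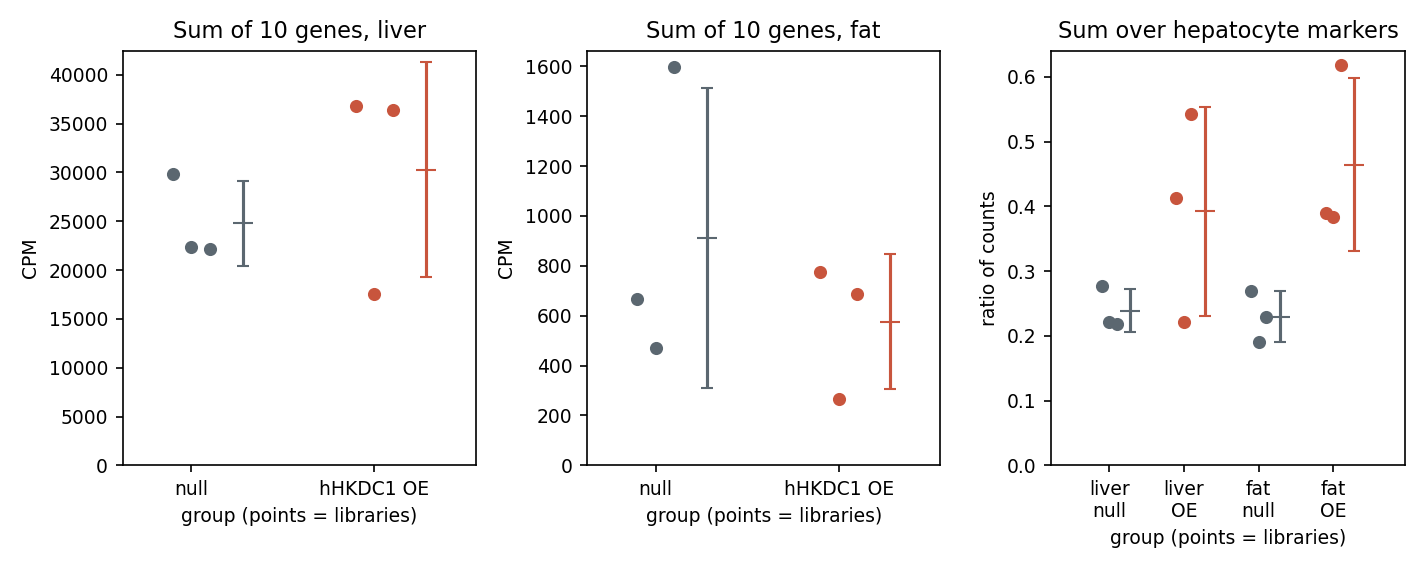
Sum of the 10 genes in CPM in liver (left) and fat (middle), and its ratio to the counts of 10 hepatocyte markers (right); points are libraries, and the dash and bar beside them are mean ± SD of 3. The sums overlap between groups in both tissues, and the ratio is apart between null and hHKDC1 OE fat.

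Within the sum, the make-up of Mup RNA in fat also differed between the groups, a description with no test. Mup3 took 46.1% to 49.6% in null and 30.4% to 32.5% in hHKDC1 OE fat. Mup11 took 1.16% to 1.495% in null and 4.74% to 9.63% in hHKDC1 OE fat. The share of Mup1 was 0.0132% to 0.0570% against 0.359% to 0.511%, and that of Mup18 was 0.00911% to 0.0396% against 0.171% to 0.610%. There were 5 shares that were higher without overlap in fat, those of Mup1, Mup9, Mup10, Mup11 and Mup18, and 4 of them (Mup9, Mup10, Mup11 and Mup18) were also higher without overlap in liver. In fat the share of Mup10 rests on 1, 1 and 2 counts against 3, 2 and 5, and its CPM overlapped, and the share of Mup9 rests on 0, 0 and 5 counts in null.

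The level of each gene was next compared between null liver and null fat. All 10 genes were higher in liver with edgeR (adjusted p 2.10e-06 to 0.0335), against 30.5% of all 15259 genes higher and 33.8% lower. Mup1, Mup9, Mup10, Mup16 and Mup18 entered this test only through liver, since at most 1 null fat library of each held enough counts, and their direction was largely set by the filter. With at least 10 counts required in every library, 5 genes (Mup3, Mup7, Mup11, Mup12 and Mup20) were tested, and all 5 were called. Their log2 differences in the reported fit lay between 5.41 ± 0.60 (Mup20) and 6.11 ± 0.94 (Mup12). Their order turned with a library left out: without null fat replicate 3 the values of Mup3, Mup11 and Mup20 were 6.27, 6.49 and 6.23, and without null liver replicate 1 that of Mup12 was 5.38. The value for Mup16 was 4.55 ± 1.57, and that for Mup18, 10.59 ± 0.45, is a fold over 1, 3 and 4 counts. Mup16 was the gene that lost its call with DESeq2 and with library size alone (adjusted p 0.0796 and 0.0640), and without null liver replicate 1, 2 or 3 or null fat replicate 1 (edgeR adjusted p 0.0608 to 0.0808). Library size alone also shifted the all-gene median log2 difference, -0.09, to -0.98, and the split of calls from 4647 higher and 5163 lower to 2286 and 9012. Mup16 is also the gene at 0, 8 and 701 counts in null fat, and without null fat replicate 3 its log2 difference was 10.18.

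The difference between the liver and fat contrasts was fitted as an interaction term. None of the 10 genes passed with edgeR, and 0 of 17070 genes did (0%), while 12.7% had an unadjusted p under 0.05. The smallest p among the 10 was that of Mup18, with a liver-minus-fat log2 difference of -2.48 ± 0.97 (unadjusted p 0.0245, edgeR adjusted p 0.308). Without fat hHKDC1 OE replicate 3 it was -1.31. Mup3 differed by 1.14 ± 0.71 in the other direction (edgeR adjusted p 0.530). DESeq2 called 497 genes (2.88%) and 0 of the 10. With limma on log2(FPKM + 1) the Mup18 difference was 0.11.

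Genes tied to Mup regulation or structure were examined as lists in liver. In growth hormone signalling, 20 of 20 genes were tested and 0 passed with edgeR. At an unadjusted p under 0.05, 0 were higher and 1 was lower, where 6.94% of all genes passed in either direction. The median log2 fold change was 0.08. Cebpa, a liver-enriched transcription factor, was at 509 ± 34.6 CPM in null and 610 ± 83.3 in hHKDC1 OE liver (log2 fold change 0.26 ± 0.16). It was the 1 gene of the 20 whose groups did not overlap, where 6.31% of all genes were higher without overlap, so it is not a result about the list. Of 20 male-biased liver genes, 15 had a log2 fold change above 0 and 0 passed, with a median of 0.44. At an unadjusted p under 0.05, 6 were higher and 3 lower, where 3.89% of all genes were higher, 6.94% passed in either direction and 51.1% had a log2 fold change above 0. Cyp4a12b, a fatty acid hydroxylase, was at 131 ± 38.4 CPM in null and 63.5 ± 12.2 in hHKDC1 OE liver, and Cyp2u1, another cytochrome P450, at 23.3 ± 6.06 and 38.8 ± 7.05. Cspg5, a proteoglycan gene, was at 1.19 ± 0.310 and 3.09 ± 1.28 CPM. Of 20 female-biased liver genes, 8 were tested and 0 passed. Of the 8, 7 had a log2 fold change below 0 and 1 above, where 51.1% of all genes were above 0. The median was -0.88. Fmo2, a flavin monooxygenase, was at 24.1 ± 1.91 CPM in null and 12.9 ± 7.73 in hHKDC1 OE liver.

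Of 13 other lipocalin genes, 10 were tested, 8 had a log2 fold change above 0, 6 were higher at an unadjusted p under 0.05 (3.89% of all genes) and 0 passed, with a median of 1.37 against 0.01 over all genes. Orm2, which encodes an acid glycoprotein of the acute phase, was at 7.90 ± 3.75 CPM in null and 347 ± 334 in hHKDC1 OE liver, a log2 fold change of 5.45 ± 0.84 (edgeR adjusted p 0.163). Lcn2, which encodes the siderophore-binding lipocalin 2, was at 10.2 ± 9.53 and 369 ± 326 CPM (log2 fold change 5.17 ± 0.97, edgeR adjusted p 0.345). Orm3 had a log2 fold change of 2.39 ± 0.56. In fat the growth hormone list had a median of -0.22, the male-biased list -0.47, the female-biased list -0.96 (7 tested) and the lipocalin list -0.60 (9 tested), against -0.05 over all genes and with 0 genes past the threshold in any. Lcn2 and Orm2 were higher without overlap in fat too, with log2 fold changes of 2.64 ± 0.43 and 1.81 ± 0.65 (edgeR adjusted p 0.133 and 0.227), where 12.5% of all genes were higher without overlap. Orm3 and Rbp4 were lower without overlap in fat, at -1.52 ± 0.39 and -0.80 ± 0.32 (edgeR adjusted p 0.140 and 0.263). The share of all genes lower without overlap is not given here, so this is a description.

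By pattern over the 6 liver libraries, the 5 genes outside the family most like the Mup sum were Ptpn1, Calu, Smurf2, Zfp30 and Peli1, with Pearson's r of log2 CPM from 0.991 to 0.998. Ptpn1 is also on the growth hormone list. Such values were common: 242 of 13324 genes (1.82%) had r above 0.9 with the sum, and 209 had r below -0.9. The 6 points share the group difference and the library scaling. Among the 10 genes themselves, Mup20 had the highest r with the sum, 0.933, and Mup16 the lowest, 0.358.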

How the data were processed

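RNA was sequenced as non-strand-specific paired reads, mapped with STAR 2.5 and counted per gene with HTSeq 0.6.1, per the submitters' processing notes in the labels. The study's methods name a later STAR version as well, and the human genome, but the identifiers are of mouse. How reads that match several copies were counted is not given in the sources used here. The authors deposited whole-number counts for 54532 genes and FPKM values. A table of the authors' own fat comparison, with fold changes and p-values, was not used.

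Each comparison was fitted on the counts with edgeR 4.0.16 (quasi-likelihood, TMM, filterByExpr, Benjamini-Hochberg over all tested genes). CPM are TMM-scaled within a tissue. DESeq2 1.42.0 and limma 3.58.1 on the deposited FPKM values (pseudocount 1 or 0.1, mean FPKM at least 0.1) were alternatives, run in R 4.3.3, beside other scalings and filters, a replicate block and each library left out. The fitting code was tested on simulated data. The members and gene lists were chosen with earlier results of these data known. Named are the 10 members, other Mup rows with a mean of at least 10 counts in liver, up to 3 genes per list with the largest change among those not overlapping, and the 5 genes most like the Mup sum.

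Same-numbered liver libraries deviated together from their group means (correlations 0.224, 0.187 and 0.104), so the blocked values are given for liver, with pairing taken from the numbers in the titles. The study gives the fat libraries as separate mice. For liver the labels do not say so, and p-values then measure the spread between these libraries, which may be technical. No 2 libraries were near copies (chi-square per gene at least 21.8 between replicates). Intervals of counts cover counting error only. Some coding sequence is not reported here.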

Additional observations from a re-analysis of the deposited data

How the results depend on the processing

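Counting genes past an adjusted p of 0.05, the liver comparison gave 0 of 10 with edgeR, 3 with DESeq2, 1 with library size alone (among 2 genes higher and 0 lower of 13351), 7 with no filter on low counts, 3 with the replicate block and 4 without the libraries described as knockouts, an alternative chosen after seeing the data. Leaving out 1 library gave 0 to 5. The fat comparison gave 0, against 3 with DESeq2, 1 in the fit of 12 libraries (among 770 higher and 106 lower of 17070 genes) and 0 to 1 with a library left out. The 1 came without hHKDC1 OE replicate 2, among 1957 higher and 1294 lower of 17190 genes. The comparison of null liver with null fat gave 10, and 5 with at least 10 counts in every library, which tests 5, and 9 to 10 with a library left out. In the interaction the count was 0 in every fit run. The cause of these differences was not tested, apart from the fewer genes tested. With no filter, 180 genes were higher and 147 lower past the threshold in liver, and 723 and 80 in fat, against 0 in the reported fits. The replicate block called 159 higher and 9 lower in fat.

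Signs turned for values near 0 in liver and in part of fat, and in the interaction also for larger values (Mup18, -2.48, Mup16, 1.94, and Mup1, -0.73). In liver, Mup20 was -0.054 with limma at either pseudocount and -0.022 with the replicate block, and Mup3 was 0.22 without the libraries described as knockouts. With a library left out Mup20 ran from -0.14 to 0.26, Mup3 from -0.25 to 0.081 and Mup7 from -0.067 to 0.72. In fat, Mup12 was -0.0072 with no filter, and with limma -0.049 at a pseudocount of 1 and -0.050 at 0.1, and Mup7 was 0.28 without the libraries described as knockouts. With a library left out Mup7 ran from -0.65 to 0.26, Mup12 from -0.47 to 0.52 and Mup16 from -0.54 to 5.83. In the interaction, Mup11 was 0.10 with DESeq2, 0.026 with upper-quartile scaling and 0.75 without the libraries described as knockouts. Mup1 was 0.63 and Mup18 0.11 with limma on log2(FPKM + 1), and Mup16 was -0.37 with limma on log2(FPKM + 0.1). With a library left out Mup9 ran from -2.71 to 1.42, Mup10 from -0.051 to 0.85, Mup11 from -0.70 to 0.69 and Mup16 from -3.52 to 2.91. The replicate numbers did not pair the fat libraries (correlations 0.0243, -0.133 and 0.0370). Between the tissues the correlations were all positive, 0.264, 0.0356 and 0.147, but libraries of unlike number reached 0.0399. Whether the numbers pair the tissues was thus not settled. The block left the count at 0 in fat, at 10 between tissues and at 0 in the interaction. Log2 ratios of the sums with 1 library left out were 0.12 to 0.56 in liver and -1.03 to -0.02 in fat, and of the ratio to hepatocyte markers 0.75 to 1.14. At under 10 counts, as for Mup9, Mup10 and Mup18 in null fat, counting error limits any fold change.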
